A study of Homo sapiens with 18 samples.

Results

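The E2F factors and the retinoblastoma (RB) pocket proteins were examined as 1 family in the RNA-seq counts of human pluripotent stem cells (PSCs) with and without PCGF6. The members were chosen by gene symbol. They were the E2F factors other than E2F6 (E2F1, E2F2, E2F3, E2F4, E2F5, E2F7 and E2F8) and the pocket protein genes RB1, RBL1 and RBL2, which makes 10 of the 57133 genes in the count table. All 10 passed the filter on low counts, which left 17672 genes for testing. The cells were PGP1, an established human induced PSC line, kept in mTeSR1 medium on Matrigel. WT cells (2 libraries) were compared with 2 PCGF6-KO lines, called clone 1 and clone 2, at 2 libraries each. Both clones were made in PGP1 by CRISPR-Cas9 with paired guides against the first exon of PCGF6, and each clone is a single cell line, so an effect of the knockout in 1 clone and a feature of that clone cannot be told apart. The labels do not say whether the 2 libraries of a group came from separate cultures, so p-values measure the spread between these libraries.

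E2F proteins are transcription factors that bind the promoters of genes for DNA replication and cell division. E2F1, E2F2 and E2F3 are classed as activators, E2F4 and E2F5 as repressors that work mostly while bound to a pocket protein, and E2F7 and E2F8 as atypical repressors that bind DNA without a DP partner and without pocket proteins. RB1, RBL1 (p107) and RBL2 (p130) hold E2F factors in check until cyclin-dependent kinases (CDKs) phosphorylate them, after which the cell passes from G1 into S phase. In PSCs, G1 is short and the pocket proteins are known to be largely phosphorylated. E2F6, which is left out of the family here, lacks the pocket protein binding region and belongs to PRC1.6, the Polycomb complex of PCGF6.

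E2F factors also bind the promoters of their own family, and the stretches below are shown because they carry the E2F sites found there. Entries of the promoter table from RefSeq (GRCh38.p14) were used for 8 of the 10 members, with 10 start sites in all. E2F5 and E2F8 were not searched. The 250 bases upstream of each start were searched on both strands for TTTCCCGC, TTTGGCGC, TTTCGCGC and TTTGCCGC as E2F sites, for the E-box CACGTG and for the CCAAT box, and no site overlapped a site of another kind. An E2F site was present in 4 of the 10 windows, those of E2F1, E2F2, E2F3 and RBL1, against 2.79% of the 35116 promoters in the table. The 100 bases upstream of these 4 starts are given 5′ to 3′ on the strand of the gene, with E2F sites in capitals. They lie at chr20:33686386-33686485 (E2F1, reverse strand), chr20:37095998-37096097 (RBL1, reverse strand), chr1:23531234-23531333 (E2F2, reverse strand) and chr6:20401779-20401878 (E2F3, forward strand).
E2F1: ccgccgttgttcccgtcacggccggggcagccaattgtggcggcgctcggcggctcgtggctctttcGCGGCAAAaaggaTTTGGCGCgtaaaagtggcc
RBL1: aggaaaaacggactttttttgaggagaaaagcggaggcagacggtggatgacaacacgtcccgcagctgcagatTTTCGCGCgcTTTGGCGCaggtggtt
E2F2: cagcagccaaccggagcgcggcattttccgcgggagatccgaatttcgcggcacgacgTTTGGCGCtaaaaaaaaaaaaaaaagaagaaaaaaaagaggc
E2F3: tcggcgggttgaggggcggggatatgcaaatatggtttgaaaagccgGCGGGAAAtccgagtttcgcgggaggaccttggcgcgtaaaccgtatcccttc
E2F1 and RBL1 each held 2 sites within the last 33 bases before the start, and E2F2 and E2F3 held 1 each. The window of E2F7, the member with the largest difference between PCGF6-KO and WT, held none of these letters and 4 CCAAT boxes, the letters bound by NF-Y. A CCAAT box was present in 32.0% of the promoters in the table and in windows of 4 members (E2F1, E2F3, E2F7 and RBL2). The 250 bases upstream of E2F7, at chr12:77065570-77065819 on the reverse strand, are given with the CCAAT boxes, here on the opposite strand, in capitals.
E2F7: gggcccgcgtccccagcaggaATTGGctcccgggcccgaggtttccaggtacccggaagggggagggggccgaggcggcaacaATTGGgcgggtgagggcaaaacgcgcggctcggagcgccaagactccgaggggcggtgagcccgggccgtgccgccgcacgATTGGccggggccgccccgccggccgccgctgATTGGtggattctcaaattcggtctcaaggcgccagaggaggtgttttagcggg
The E-box, the site of MYC, MAX and MGA, was found for 1 member, at the second start of E2F3, against 6.34% of the table. The RB1 entry of the table starts 172706 bases from the annotated start of the gene, so it does not describe the main promoter. The RBL2 entries start 494 and 1642 bases inside the annotated gene, with the CCAAT box in the window of the latter. The bases before the annotated start of RBL2 were thus not searched. A match of letters is a description and not a measured binding site.

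The 6 libraries summed to between 15877396 and 18918609 counts. PCGF6 itself was counted 268 and 300 times in the WT libraries, 99 and 103 times in clone 1 and 187 and 159 times in clone 2 (log2 fold change −1.15 over both clones, adjusted p = 0.00914), over the whole gene and not the deleted part alone. All 10 pluripotency markers examined passed the filter on low counts and none was called different from WT. By an adjusted p below 0.05 alone, 2 of the 10 were higher and 3 lower. These markers do not stand for every pluripotency gene. The paper reports a decrease of SOX2 in PCGF6-KO cells. The summed level of the markers examined was 8418 to 8767 CPM (counts divided by the library size after TMM scaling) in WT and 7843 to 8413 CPM in PCGF6-KO. Markers of other cell types were summed in the same way. The summed level of 10 mesendoderm markers was 4.13 to 5.40 CPM in WT and 689 to 925 CPM in PCGF6-KO (9 of 9 tested called higher). HAND1 and SOX17 were at 0 in WT, as was MESP1, which was not tested. The summed level of 10 fibroblast and mesenchyme markers was 856 to 867 against 1726 to 2057 CPM (7 called higher and 1 lower of 9 tested). DCN was at 0 in WT, as was FAP, which was not tested. The summed level of 10 neuroectoderm markers was 84.9 to 87.2 against 41.4 to 46.7 CPM (2 called higher and 2 lower of 6 tested). Of these 6, 4 had a log2 fold change above 0 and 2 below it, with a median of 0.92. The sum thus does not describe each neuroectoderm marker. Of all genes, 14.9% were called higher and 8.70% lower. A gene at or near 0 in WT passes the filter through PCGF6-KO alone and can only be higher, so its call is no test of direction. With so low a WT sum, calls of other mesendoderm markers may be of this kind too. The part of these marker shifts in the values of the E2F and RB genes was not tested. In bulk RNA, fewer cells with a transcript and less of it per cell cannot be told apart.

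The family was first ordered by level in WT cells, in TPM, which scales counts by gene length and library. E2F4 was the most abundant member, with 183 ± 1.02 TPM (SD, n = 2). E2F3 followed with 78.7 ± 2.59 TPM. E2F1 (39.4 ± 2.48 TPM) and E2F7 (38.1 ± 0.643 TPM) overlapped between libraries, and E2F8 (34.8 ± 0.925 TPM) and RB1 (32.0 ± 1.75 TPM) came next. E2F5 (19.9 ± 2.71 TPM) and RBL1 (19.0 ± 0.372 TPM) overlapped as well. RBL2 had 14.7 ± 0.214 TPM, and E2F2 was the lowest member, with 3.95 ± 0.852 TPM. RB1 was thus the most abundant pocket protein gene, and E2F4 and E2F3 together exceeded the other E2F genes.

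The ends of this order were the same in PCGF6-KO. E2F4, E2F3 and E2F2 were the highest, the next and the lowest in both clones, while E2F7, above E2F8 and RB1 in WT, lay below both in clone 1 (24.4 ± 0.447 TPM, n = 2) and clone 2 (24.9 ± 1.76 TPM, n = 2). E2F8 stood next after E2F3 in clone 1 (42.5 ± 0.840 TPM) and overlapped E2F1 in clone 2 (39.5 ± 1.17 TPM). The gene level does not separate the 2 isoforms of E2F3 that start from different promoters.

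**Figure D1:**
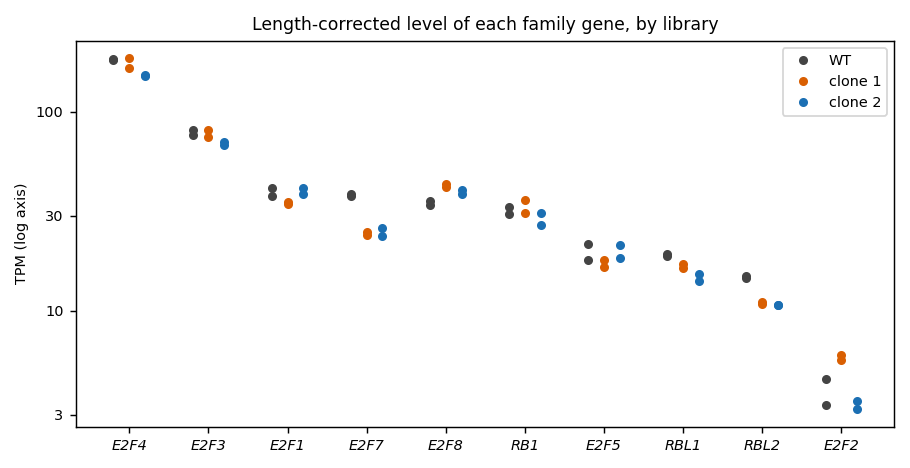
Length-corrected level (TPM, log axis) of each family gene in the 6 libraries, in the order of the WT mean, with 1 point a library, WT in grey, clone 1 in orange and clone 2 in blue. E2F4 is highest and E2F2 lowest in all 3 groups, and the points of E2F7 and RBL2 in the clones lie below those in WT.

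The comparison of PCGF6-KO with WT asked which family genes changed when PCGF6 was lost. With the clones as 1 group of 4 libraries, 0 of the 10 members were called by edgeR's quasi-likelihood test, which here took an adjusted p (Benjamini-Hochberg) below 0.05 together with a log2 fold change beyond ±0.6, against 23.6% of all genes tested. DESeq2 also called 0, against 19.0% of the genes it tested, and 4 members had an unadjusted p under 0.05 in edgeR, against 46.3% of all genes. Without the fold threshold, 3 members passed the adjusted p, against 37.1% of all genes. E2F7 and RBL2 fell and E2F8 rose. The median absolute log2 fold change was 0.15 over the members and 0.32 over all genes tested. The 95% interval of the log2 fold change lay wholly inside ±0.6 for 8 of the 10 members, all but E2F2 and E2F7, against 41.4% of all genes. The libraries of PCGF6-KO and WT did not overlap for 4 members (E2F8 above WT, and E2F7, RBL1 and RBL2 below it), against 57.1% of all genes (29.5% above and 27.6% below).

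**Figure D2:**
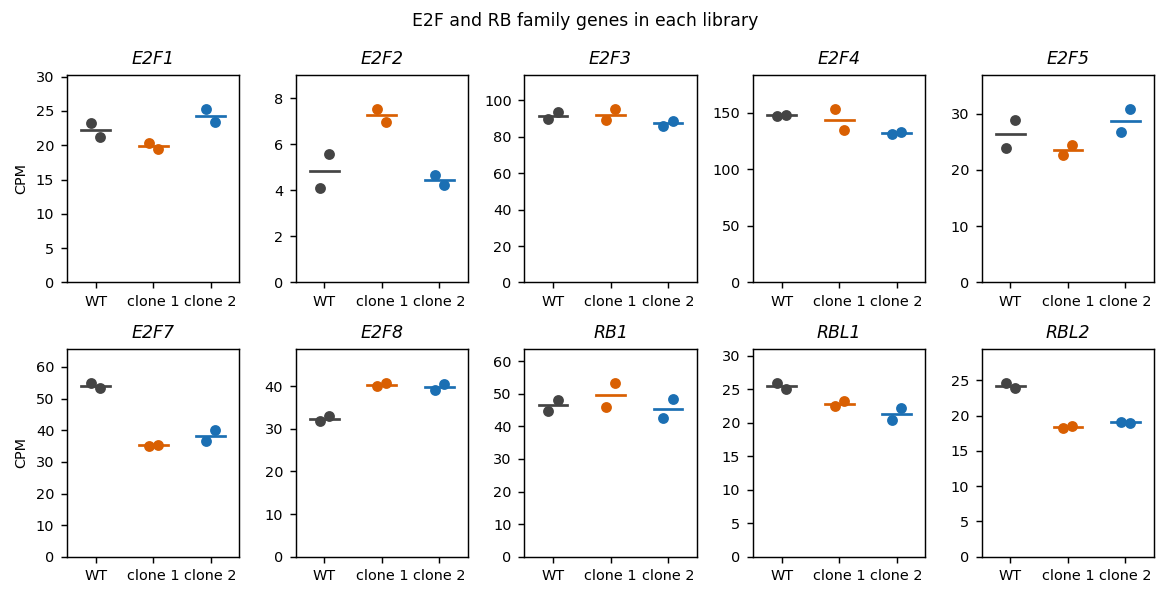
CPM of each family gene in WT, clone 1 and clone 2, with 1 point a library, a line at the group mean, and every axis starting at 0. E2F7 and RBL2 lie lower and E2F8 higher in all 4 PCGF6-KO libraries, and E2F2 is higher in clone 1 alone.

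Of the atypical repressors, E2F7 lies on chromosome 12 of GRCh38 (77021248 to 77065569). It was counted 892 and 889 times in the WT libraries, 670 and 645 times in clone 1, and 661 and 642 times in clone 2. Scaled for depth, this was 54.8 and 53.3 CPM in WT, 35.0 and 35.5 CPM in clone 1, and 36.5 and 40.0 CPM in clone 2. All 4 PCGF6-KO libraries were below both WT libraries. E2F7 fell by 0.56 on the log2 scale (adjusted p = 0.000615, standard error 0.08), a level of 0.680 times that of WT (95% interval 0.601 to 0.769). It passed the adjusted p under 13 of 13 alternatives, with log2 fold changes from −0.60 to −0.53. Its 3 closest genes by Pearson's r of log2 CPM over the 6 libraries were ARHGAP35, RABL3 and SON (r = 1.00 each to 2 decimals). Because 711 genes reached an r of 0.95 with E2F7 over these 6 points, which form 3 groups, this likeness sets few genes apart.

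E2F8, on chromosome 11 (19224063 to 19241620), partners E2F7 in repressing E2F targets late in S phase. Its level was 31.8 and 32.9 CPM in WT, 40.0 and 40.6 CPM in clone 1, and 39.1 and 40.5 CPM in clone 2. All 4 PCGF6-KO libraries were above both WT libraries. E2F8 rose by 0.31 on the log2 scale (adjusted p = 0.00908, standard error 0.07), or 1.24 times WT (95% interval 1.11 to 1.39). With replicate 1 of WT left out the adjusted p was 0.101, and with replicate 2 left out 0.0614, where the lone WT library is assumed to vary like the others. E2F8 overlaps CSRP3-AS1 on the opposite strand, and the strand setting of the counting is not given in the sources used here.

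The 2 atypical genes therefore moved in opposite directions. The ratio of E2F8 to E2F7 in counts per kilobase, chosen after the values were seen, was 0.884 and 0.940 in the WT libraries, 1.74 in both libraries of clone 1, and 1.63 and 1.54 in those of clone 2. The groups did not overlap, and the exact two-sided permutation test gave p = 0.133. This test doubles the smaller tail, and 0.133 is the smallest p it can give with 4 against 2 libraries. The share of both atypical genes in the summed E2F level was 18.3 ± 0.158% (SD, n = 2) in WT and 18.1 ± 0.664% (n = 4) in PCGF6-KO, a difference of −0.22 percentage points. In shares of counts, without the correction for length, the difference was −1.39 points.

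Among the pocket proteins, RBL2 encodes p130, the member best known from resting cells, and lies on chromosome 16 (53433977 to 53491648). Both WT libraries held 400 counts, the clone 1 libraries 349 and 336, and the clone 2 libraries 347 and 305. This was 24.6 and 24.0 CPM in WT, 18.3 and 18.5 CPM in clone 1, and 19.1 and 19.0 CPM in clone 2. The PCGF6-KO libraries were all below WT, and on the log2 scale they differed by −0.37 (adjusted p = 0.00783, standard error 0.08), or 0.771 times WT (95% interval 0.675 to 0.881). Without replicate 1 of WT the adjusted p was 0.0798, and without replicate 2 it was 0.0607. RBL2 overlaps AKTIP on the opposite strand.

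RBL1 encodes p107, whose own promoter is a known E2F target, and lies on chromosome 20 (36996349 to 37095997). It had 25.9 and 25.05 CPM in WT, 22.4 and 23.2 CPM in clone 1, and 20.4 and 22.1 CPM in clone 2. Its libraries did not overlap between PCGF6-KO and WT either, but the log2 fold change (−0.21, standard error 0.09) did not pass the test (adjusted p = 0.100). Averaging both clones after fitting 3 groups gave an adjusted p of 0.0414 at the same size (log2 fold change −0.21). RBL1 overlaps a lncRNA on the opposite strand.

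RB1, the retinoblastoma gene, lies on chromosome 13 (48303744 to 48599436). It had 44.7 and 48.1 CPM in WT, 46.0 and 53.1 CPM in clone 1, and 42.5 and 48.4 CPM in clone 2. The groups overlapped, and the log2 fold change was 0.03 (95% interval −0.19 to 0.25, adjusted p = 0.818). Among the 3 pocket protein genes, RB1 made up 47.4 and 49.9% of the summed length-corrected level in WT and between 52.2 and 56.2% in PCGF6-KO. The share of RBL2 was 22.9 and 21.9% in WT and between 17.2 and 20.7% in PCGF6-KO, and that of RBL1 was 29.7 and 28.2% against 26.6 to 28.1%. For these shares the groups did not overlap, and each gave p = 0.133 by the exact two-sided permutation test (adjusted p = 0.267 over 6 shares), the smallest p possible being 0.133.

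**Figure D3:**
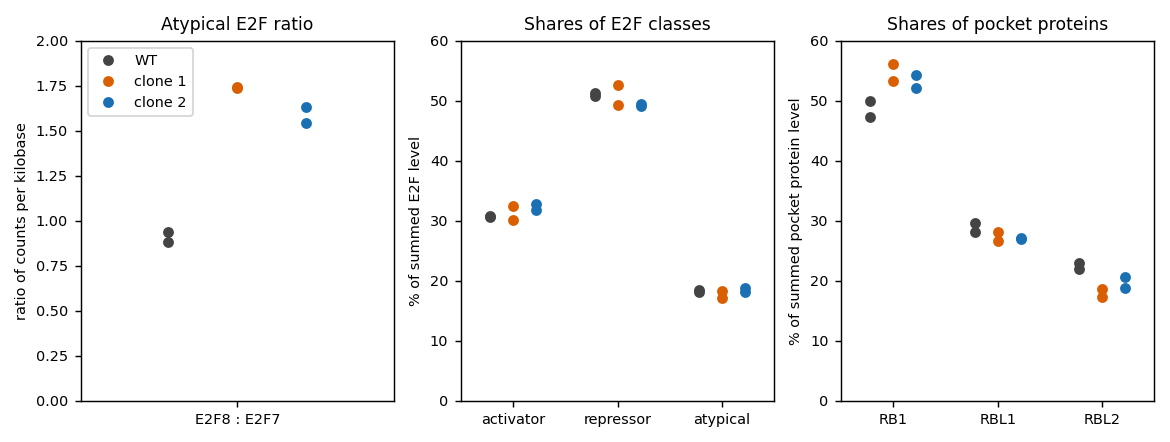
Ratio of E2F8 to E2F7, shares of the E2F classes in the summed E2F level, and shares of the pocket proteins in their summed level, all from counts per kilobase, with 1 point a library. The ratio is below 1 in WT and above 1.5 in the clones, and RB1 takes a larger and RBL2 a smaller share in the clones.

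None of the activators passed the test in PCGF6-KO as a group. E2F1, on chromosome 20 (33675477 to 33686385), drives S phase entry and, when in excess, apoptosis. It had 23.2 and 21.2 CPM in WT, 20.3 and 19.5 CPM in clone 1, and 25.3 and 23.4 CPM in clone 2. Clone 1 was below and clone 2 above both WT libraries, and the log2 fold change over the 4 libraries was −0.01 (95% interval −0.29 to 0.27, adjusted p = 0.976). E2F3, on chromosome 6 (20401879 to 20493714), had 89.4 and 93.3 CPM in WT, 88.9 and 95.1 CPM in clone 1, and 85.9 and 88.8 CPM in clone 2. Its log2 fold change was −0.03 (95% interval −0.18 to 0.12, adjusted p = 0.780), the narrowest interval of the family.

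E2F2, on chromosome 1 (23506438 to 23531233), was the least abundant member, counted 67 and 93 times in the WT libraries, 144 and 127 times in clone 1, and 85 and 68 times in clone 2. This was 4.11 and 5.57 CPM in WT, 7.53 and 6.99 CPM in clone 1, and 4.69 and 4.24 CPM in clone 2. Clone 1 was above WT and clone 2 was within the range of WT. The log2 fold change over both clones was 0.28 (95% interval −0.35 to 0.90, adjusted p = 0.465), the widest interval of the family. A change of 0.6 in size is not excluded. The standard error was 0.27 over both clones, against 0.18 for clone 1 and 0.19 for clone 2 in a fit with 3 groups.

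Of the pocket-dependent repressors, E2F4, on chromosome 16 (67192155 to 67198918), had 147 and 148 CPM in WT, 153 and 135 CPM in clone 1, and 132 and 133 CPM in clone 2. Clone 2 was below WT and clone 1 lay on both sides of it. The log2 fold change was −0.10 (95% interval −0.27 to 0.08, adjusted p = 0.357). E2F5, on chromosome 8 (85177154 to 85217158), had 24.0 and 28.9 CPM in WT, 22.7 and 24.4 CPM in clone 1, and 26.7 and 30.8 CPM in clone 2. The log2 fold change was −0.02 (95% interval −0.33 to 0.29, adjusted p = 0.929), and E2F5 overlaps RBIS on the opposite strand. The activators made up 30.7 ± 0.140% of the summed E2F level in WT (SD, n = 2) and 31.8 ± 1.17% in PCGF6-KO (n = 4), and the repressors 51.0 ± 0.298% and 50.1 ± 1.70%. The PCGF6-KO libraries lay on both sides of WT for both shares, with p = 0.400 each by the exact two-sided permutation test (adjusted p = 0.480 over 6 shares), which cannot go below 0.133 here.

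The clones were then compared with WT one by one, in a fit with 3 groups. Both comparisons share the WT libraries. In clone 1, E2F7 was the 1 member called (log2 fold change −0.62, standard error 0.08, adjusted p = 1.05e-06), against 24.8% of all genes (16.0% higher and 8.80% lower). In clone 2, 0 members were called, against 29.4% (16.9% higher and 12.5% lower). DESeq2 also called 0 in clone 2, and 5 members had an unadjusted p under 0.05 there, against 55.4% of all genes. E2F7 in clone 2 stood at −0.50 (adjusted p = 1.80e-05). The E2F7 call in clone 1 sits close to the fold threshold. Its log2 fold change was −0.60, just inside the threshold, without replicate 1 of WT, and −0.59 with at least 10 counts in every library.

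Without the fold threshold, 4 members passed in clone 1, against 45.3% of all genes (24.1% higher and 21.1% lower), as many as had an unadjusted p under 0.05 (51.6% of all genes). In clone 2, 4 members passed as well, against 50.4% (26.2% higher and 24.2% lower). E2F7, E2F8 and RBL2 passed in both clones, E2F2 in clone 1 and RBL1 in clone 2. E2F8 stood at 0.32 on the log2 scale in clone 1 (adjusted p = 0.00390) and at 0.30 in clone 2 (adjusted p = 0.00576). Without replicate 1 of WT these adjusted p-values became 0.0543 and 0.0666. RBL2 stood at −0.40 in clone 1 (adjusted p = 0.00165) and at −0.35 in clone 2 (adjusted p = 0.00511, and 0.0570 by DESeq2). E2F4 in clone 2 was at −0.16 with an adjusted p of 0.0502. That p was 0.0125 under upper-quartile scaling, 0.0111 with the replicate block and 0.0278 with the 2 groups compared alone.

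E2F2 was higher in clone 1 than in WT (log2 fold change 0.58, standard error 0.18, adjusted p = 0.0095), while clone 2 gave −0.12 (standard error 0.19, adjusted p = 0.649). In clone 1, leaving out replicate 1 of WT gave a log2 fold change of 0.38 (adjusted p = 0.173), and leaving out replicate 1 of clone 1 gave an adjusted p of 0.0560. DESeq2 gave 0.121. E2F2 passed the fold threshold, and was called in clone 1, without replicate 2 of WT (0.83), without replicate 2 of clone 1 (0.65) and with at least 10 counts in every library (0.60). RBL1 stood at −0.16 in clone 1 (adjusted p = 0.197) and at −0.26 in clone 2 (adjusted p = 0.0309). In clone 2, its adjusted p became 0.140 or 0.0703 when replicate 1 or 2 of WT was left out, 0.224 when replicate 1 of clone 2 was left out, 0.0699 with no filter and 0.166 by DESeq2.

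**Figure D4:**
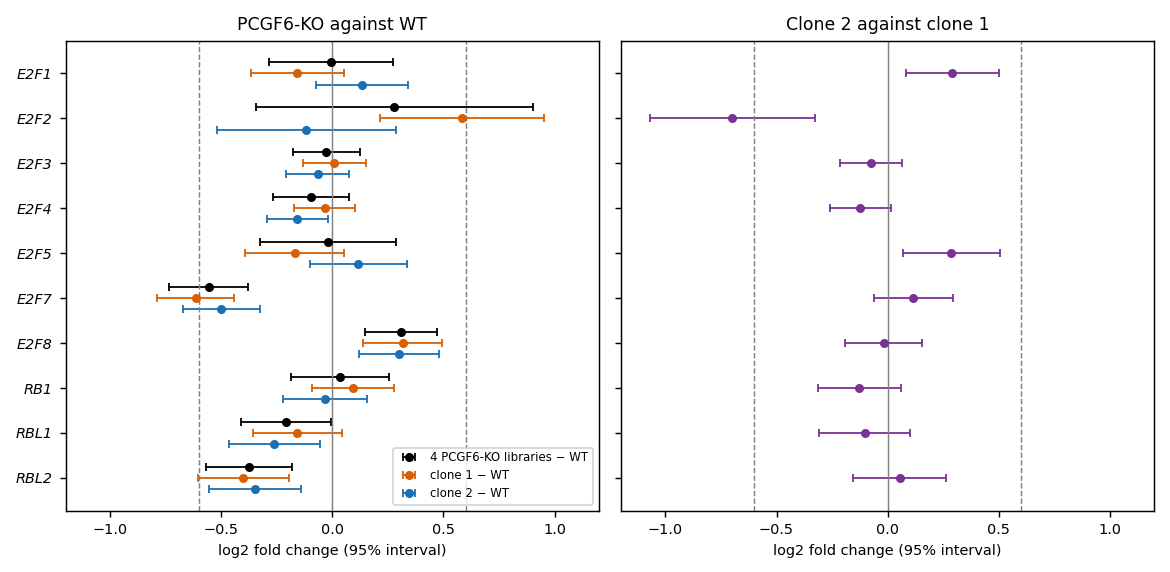
Log2 fold changes with 95% intervals of the family genes for PCGF6-KO and each clone against WT (left) and for clone 2 against clone 1 (right), with dashed lines at ±0.6. E2F7 and RBL2 lie below 0 and E2F8 above 0 in each comparison with WT, and E2F2 has the largest difference between the clones, at −0.70.

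Tested directly between the clones, E2F2 and E2F1 passed the adjusted p, a count near the share of all genes. E2F2 was lower in clone 2 than in clone 1 (log2 difference −0.70, standard error 0.18, adjusted p = 0.00648), the 1 member called, against 7.87% of all genes (3.73% higher and 4.14% lower). The adjusted p was 0.0614 without replicate 2 of clone 2, and 0.0995 by DESeq2. E2F1 was higher in clone 2 (log2 difference 0.29, standard error 0.10, adjusted p = 0.0424). It stayed under the fold threshold, and its adjusted p was 0.0655 without replicate 1 of clone 1, 0.160 without replicate 2 of clone 1, 0.259 without replicate 1 and 0.0655 without replicate 2 of clone 2. By DESeq2 it was 0.202, under upper-quartile scaling 0.0641, with no filter 0.0675 and with the 2 groups compared alone 0.0610. These 2 members passed the adjusted p alone, against 19.5% of all genes (10.7% higher and 8.82% lower). The 95% interval of the difference between the clones lay within ±0.6 for the other 9 members than E2F2, against 58.3% of all genes. For E2F7 it ran from −0.06 to 0.29 and for E2F8 from −0.19 to 0.16.

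The genes around the family were examined from 7 lists, and their counts are read against the 14.9% of all genes called higher and the 8.70% called lower. Typical E2F factors bind DNA as dimers with DP proteins. TFDP1, the main partner, had 154 and 160 CPM in WT, and the PCGF6-KO libraries had 158, 160, 165 and 173 CPM (log2 fold change 0.06, adjusted p = 0.456). TFDP2, the second partner, had 108 and 114 CPM in WT and 75.3, 73.7, 68.2 and 75.2 CPM in PCGF6-KO. All 4 libraries were below WT, and TFDP2 was called lower, just past the fold threshold (log2 fold change −0.60, standard error 0.07, adjusted p = 0.000149). The call was lost with at least 10 counts in every library and without replicate 2 of WT, replicate 2 of clone 1 or replicate 1 of clone 2. TFDP3 did not pass the filter on low counts. E2F6 had 15.0 and 15.0 CPM in WT, and the PCGF6-KO libraries had 22.2, 21.8, 21.1 and 22.6 CPM. All 4 were above WT, and E2F6 passed the adjusted p (log2 fold change 0.55, adjusted p = 0.00151) but not the fold threshold.

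Of 9 genes of the MuvB core, its MYB and FOXM1 partners and the kinase that assembles it with pocket proteins, 1 was called higher and 0 lower, against 14.9% and 8.70% of all genes, with a median log2 fold change of 0.06 (0.00 over all genes). The 1 was LIN54, the subunit that binds DNA (log2 fold change 0.73, standard error 0.08, adjusted p = 0.000178). Of 11 chromatin cofactors of pocket proteins, 0 were called higher and 1 lower, also against 14.9% and 8.70%, with a median of −0.05. A single call in lists of this size is near the background. This was RBBP7, a histone-binding subunit of deacetylase and PRC2 complexes that overlaps TXLNG (log2 fold change −0.66, standard error 0.06, adjusted p = 3.1e-05).

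Cyclins, CDKs and CDK inhibitors set the phosphorylation of the pocket proteins. Of 10 genes for cyclins, CDKs and the CDC25A phosphatase, 3 were called higher and 0 lower, against 14.9% and 8.70% of all genes, with a median log2 fold change of 0.20. CDK6, a kinase of RB1, was counted 366 and 424 times in WT libraries and 2211, 2551, 2536 and 2380 times in those of PCGF6-KO, 5.68 times WT (95% interval 4.70 to 6.86, adjusted p = 1.08e-06). CCND1, which encodes cyclin D1, was counted 1878 and 1945 times in WT libraries and 9628, 10103, 10645 and 9796 times in those of PCGF6-KO, 4.87 times WT (95% interval 4.22 to 5.61, adjusted p = 3.87e-07). Both overlap a gene on the opposite strand. Of 6 CDK inhibitor genes tested, 4 were called higher and 0 lower, against the same shares of all genes. A filter that kept only those counted at least 10 times in each library left 3 of them, of which 1 was called. CDKN2B was counted 0 and 2 times in WT libraries and 231, 217, 353 and 354 times in those of PCGF6-KO (adjusted p = 2.03e-05), and CDKN2A, which overlaps CDKN2B-AS1, was counted 6 and 0 times in WT libraries and 116, 122, 217 and 167 times in those of PCGF6-KO (adjusted p = 0.000215). No fold is given for these 2 genes because of the low WT counts. Both passed the filter through PCGF6-KO alone and could only be called higher. Their calls, part of the 4 above, are thus no test of direction.

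Downstream, 46 genes of DNA replication and G1/S transition were listed as E2F targets, of which 45 were tested. Of these, 0 were called higher (against 14.9% of all genes) and 4 lower (against 8.70%), with a median log2 fold change of −0.17. MCM5, a subunit of the replicative helicase, was among those called lower, with 5982 and 5930 counts in the WT libraries and 4020, 3401, 4427 and 3509 in those of PCGF6-KO (log2 fold change −0.75, adjusted p = 0.000303, standard error 0.09). Without the fold threshold, 4 of the 45 were higher (against 20.5% of all genes) and 20 lower (against 16.6%). Of 34 G2/M genes, 1 was called higher and 0 lower, against 14.9% and 8.70% of all genes, with a median of 0.05. The 1 was CENPA, the centromeric histone H3 variant, counted 153 and 122 times in WT libraries and 288, 361, 448 and 333 times in those of PCGF6-KO (log2 fold change 1.27, standard error 0.21, adjusted p = 0.00138), which overlaps SLC35F6 on the same strand. Without the fold threshold, 7 were higher and 4 lower, against 20.5% and 16.6% of all genes.

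**Figure D5:**
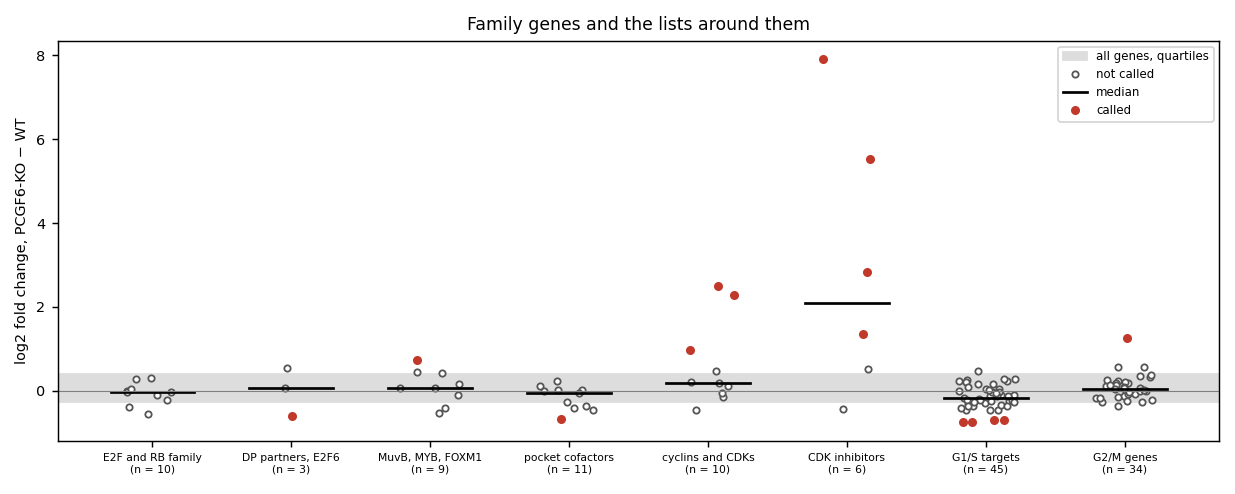
Log2 fold changes between PCGF6-KO and WT libraries for the family and for the 7 lists around it, with 1 point a gene, filled red where called, a black line at the median of the list and a grey band for the quartiles of all genes tested. The 10 family genes all lie between −0.56 and 0.31, while 3 cyclin and CDK genes and 4 CDK inhibitor genes are called higher. Of these inhibitors, CDKN2A and CDKN2B passed the filter on low counts through PCGF6-KO alone.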

How the data were processed

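RNA-seq libraries of WT (2), PCGF6-KO clone 1 (2) and clone 2 (2) PGP1 cells were used; the 12 ChIP-seq libraries were not analysed here. The authors trimmed reads with Trim Galore (0.6.2), aligned them to GRCh38 with HISAT2 (2.1.0) and deposited raw featureCounts counts per gene with gene lengths. The annotation release, strand setting and treatment of multi-mapped reads are not given in the sources used here. Genes were filtered with filterByExpr on the 2 genotypes, scaled by TMM and tested with edgeR (4.0.16, R 4.3.3) glmQLFTest, with Benjamini-Hochberg adjustment over 17672 genes, in a fit with 2 genotypes (PCGF6-KO against WT) and one with 3 groups (clones). A gene was called below an adjusted p of 0.05 when its log2 fold change also lay beyond ±0.6. These thresholds follow the study's methods, which used DESeq2. The biological coefficient of variation was 0.120 with 2 genotypes and 0.0524 with 3 groups. Intervals of fold changes are 95%. TPM and counts per kilobase used the deposited gene lengths. Positions and overlaps came from the GENCODE annotation, and promoters from RefSeq (GRCh38.p14). Shares were compared by the exact permutation test, with the smaller tail doubled for a two-sided p. Replicates differed by more than counting error (chi-square per degree of freedom 2.40 to 4.50). The steps were tested on simulated counts. The members and gene lists were chosen with earlier results of these data known. Named were the members, PCGF6, E2F6, TFDP1, TFDP2, up to 2 called genes in each direction with the largest change per list, and the 3 genes most like the member with the largest change. The result for 1 gene that this rule names is not reported here. Alternatives were DESeq2 (1.42.0), other scalings, filters and thresholds, a replicate block, a fit averaging the clones, fits of 2 groups and leaving out each library.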

Additional observations from a re-analysis of the deposited data

Results flagged for a closer look

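The following values stood apart by a rule on gaps within a group of 4 libraries or by the direct test of the clones. Across 16 checks of the 4 PCGF6-KO libraries, 2 had 1 library apart from the rest, where chance gives about 1 in 20. E2F4 in replicate 1 of clone 1 had 153 CPM against 132 to 135 CPM in the other three, a gap of 0.843 of the range. The repressor share of the summed E2F level, which E2F4 dominates, was 52.6% in the same library against 49.1 to 49.4%, a gap of 0.906 of the range.

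By the edgeR test of clone 2 against clone 1, 2 members passed the adjusted p, near the share of all genes (19.5%). E2F1 had a log2 difference of 0.29 (adjusted p = 0.0424, and 0.202 by DESeq2). E2F2 had one of −0.70 (adjusted p = 0.00648, and 0.0995 by DESeq2). Among the other genes named, PCGF6 differed by 0.90 (adjusted p = 5.44e-05), CDKN2A by 0.81 (adjusted p = 0.00181), CDKN2B by 0.79 (adjusted p = 5.03e-05), CENPA by 0.39 (adjusted p = 0.0356), MCM5 by 0.22 (adjusted p = 0.0171) and CCND1 by 0.18 (adjusted p = 0.0272), all higher in clone 2.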

How the results depend on the processing

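With the fold threshold kept, 0 members were called in PCGF6-KO and in clone 2 under every scaling, filter, tool, fit and left-out library tried. With an adjusted p alone, 3 members passed in PCGF6-KO, 4 in clone 1, 4 in clone 2 and 2 between the clones. The shares of all genes were 37.1%, 45.3%, 50.4% and 19.5% in the same order. Leaving out 1 library gave 0 called members in PCGF6-KO and in clone 2, between 0 and 2 in clone 1 and between 0 and 1 between the clones, where DESeq2 called 0. An arm with 1 library left is assumed to vary like the rest. Genes of the lists that passed an adjusted p alone are read against 37.1% of all genes. They were 2 of 3 partners, 3 of 9 MuvB genes, 5 of 11 cofactors and 7 of 10 genes for cyclins and CDKs. Among CDK inhibitors 5 of 6 passed (4 higher and 1 lower), in G1/S 24 of 45 and in G2/M 11 of 34. With at least 10 counts in every library, 0 partners and 1 CDK inhibitor (of 3 left) were called. Leaving out a library gave 0 to 1 called partners and 1 to 2 called G2/M genes. In counts rather than per kilobase, the atypical share differed by −1.39 percentage points, against −0.22.

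Signs turned only for differences that did not pass the test, and the cause was not tested. With at least 10 counts in every library, E2F1 was at 0.014 and E2F5 at 0.00039 in PCGF6-KO, and under upper-quartile scaling E2F3 was at −0.011 in clone 1. Leaving out single libraries gave these ranges of log2 fold changes. In PCGF6-KO they were −0.071 to 0.061 for E2F1, −0.060 to 0.0051 for E2F3, −0.15 to 0.13 for E2F5 and −0.020 to 0.092 for RB1. In clone 1 they were −0.024 to 0.062 for E2F3 and −0.13 to 0.068 for E2F4. In clone 2 they were −0.32 to 0.12 for E2F2, −0.015 to 0.26 for E2F5 and −0.12 to 0.068 for RB1. Between the clones, E2F8 ranged from −0.043 to 0.0072. E2F4 and E2F5, not called between the clones, passed the adjusted p without replicate 2 of clone 1 (E2F4, 0.0234) and without replicate 1 of clone 2 (E2F5, 0.0336).

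The labels do not say whether the replicate numbers pair libraries across groups, and the main fits did not pair them. Across 13633 genes, the replicate differences correlated with r = 0.07 (WT and clone 1), 0.08 (WT and clone 2) and 0.19 (clone 1 and clone 2). With the replicate block 0 members were called in PCGF6-KO, and 3876 of all genes against 4167. The adjusted p with the block was 0.00213 for E2F7, 0.0124 for E2F8 and 0.0141 for RBL2. Between the clones E2F5 passed with the block (adjusted p = 0.0106).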
